A study of Saccharomyces cerevisiae with 6 samples.

Results

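The members described here are 37 of the 9275 yeast probe sets on the array, chosen by their measured values. Each read at least 7 on the deposited log2 scale in all 4 arrays of the strain deleted for FLO8, and at most 4 in both arrays of the strain deleted for MSS11. A probe set is a group of short oligonucleotides that together report 1 transcript or 1 stretch of it. The array is the Affymetrix Yeast Genome S98 design, and 60 control probe sets were left out of the count. The platform annotation pairs 29 members with 1 gene each, which gives 25 genes, and lists several genes for the other 8. Because both strains' levels chose the members, their strain difference is given as a description with no test. As a statement about genes, the description "expressed without FLO8, near background without MSS11" goes against the data for 12 of the 13 genes that also have a probe set outside the rule, as set out below, so the members are called by their rule.

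In budding yeast, filamentous and invasive growth depend on the transcription factors Flo8 and Mss11. Both act on the promoter of FLO11, which encodes the cell-surface adhesin needed for pseudohyphae, and Flo8 is a target of the cyclic AMP-dependent kinase Tpk2. Diploid cells of the Σ1278b background form pseudohyphae when nitrogen is scarce, which is why this background is used for such work.

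Both groups were homozygous diploids of strain Y825/6 in the Σ1278b background, obtained by mating Y825 and HLY337 haploids. In the first group (4 arrays) both copies of FLO8 were replaced by a KanMX6 cassette, written flo8Δ below, and in the second (2 arrays) both copies of MSS11, written mss11Δ. Every strain therefore carried the same resistance marker. Cultures grew in YPD at 30 °C to an OD600 of 0.6 and were moved to SLAD medium, which holds 2% glucose and 50 µM ammonium sulfate, before RNA was taken with a poly(A) purification kit. No wild-type array was used here, so a level in one deletion strain is read only against the other. The labels give no time in SLAD and do not state whether each array had its own culture, so the p-values rest on array-to-array spread that may be technical. In bulk RNA, fewer cells with a transcript and less of it per cell cannot be told apart.

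The deleted genes behaved as labelled. FLO8 probe set 5593_at read 3.32, 3.28, 3.31 and 3.37 in flo8Δ and 8.20 and 8.25 in mss11Δ, which put mss11Δ 4.90 ± 0.04 (SE) higher, at a limma adjusted p of 1.3e-06. MSS11 probe set 9476_at read 6.23, 6.81, 6.66 and 6.49 in flo8Δ and 2.95 and 3.51 in mss11Δ, so the level fell by 3.32 ± 0.22 (SE) in mss11Δ, at a limma adjusted p of 0.00090. The second FLO8 probe set, 5594_at, stayed between 2.71 and 2.89 in all 6 arrays, so it carried little signal in either strain. Array medians ran from 8.12 to 8.18. With limma, 12.1% of all probe sets were lower in mss11Δ and 28.2% were higher at an adjusted p under 0.05, so 69.9% of the calls were higher. That share was 54.9% after each array was centred on its median. By means alone, 6.24% of probe sets were at least 2-fold lower in mss11Δ. All 37 members were among those lower by limma, which the rule fixed and from which nothing is read.

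Member levels in flo8Δ spanned most of the array's upper range, whereas in mss11Δ most, 22 of 37, lay within the range of the foreign controls in both arrays. The mean over the 4 flo8Δ arrays ran from 7.46 to 11.29 across members, with a median of 8.63, and the mean over the 2 mss11Δ arrays from 1.57 to 3.84, with a median of 3.09. The 28 control probe sets for foreign or antisense sequences had a median of 2.06 and 2.08 in the mss11Δ arrays, and the highest of them read 3.35 in each. Of the 22 members at or below that highest control in both arrays, 3 lay at or below the control median in both. Another 6 members read above the highest control in both arrays, and 9 were above it in 1 array only. Low readings were common on the array, since 20.9% and 20.6% of all probe sets read 4 or less in the mss11Δ arrays. Values at or below that control only bound a difference, so each array's mss11Δ level was set no lower than it. The difference, mss11Δ minus flo8Δ, then ran from -7.90 to -3.76 with a median of -5.17, beside a median of 0.11 over all probe sets. That is 13.5-fold lower for CTF19, which was above the controls in both arrays, to at least 239-fold lower for FAS2 2606_s_at, with a median of at least 36.0-fold. For 31 of the 37 members the fold is such a bound.

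**Figure D1:**
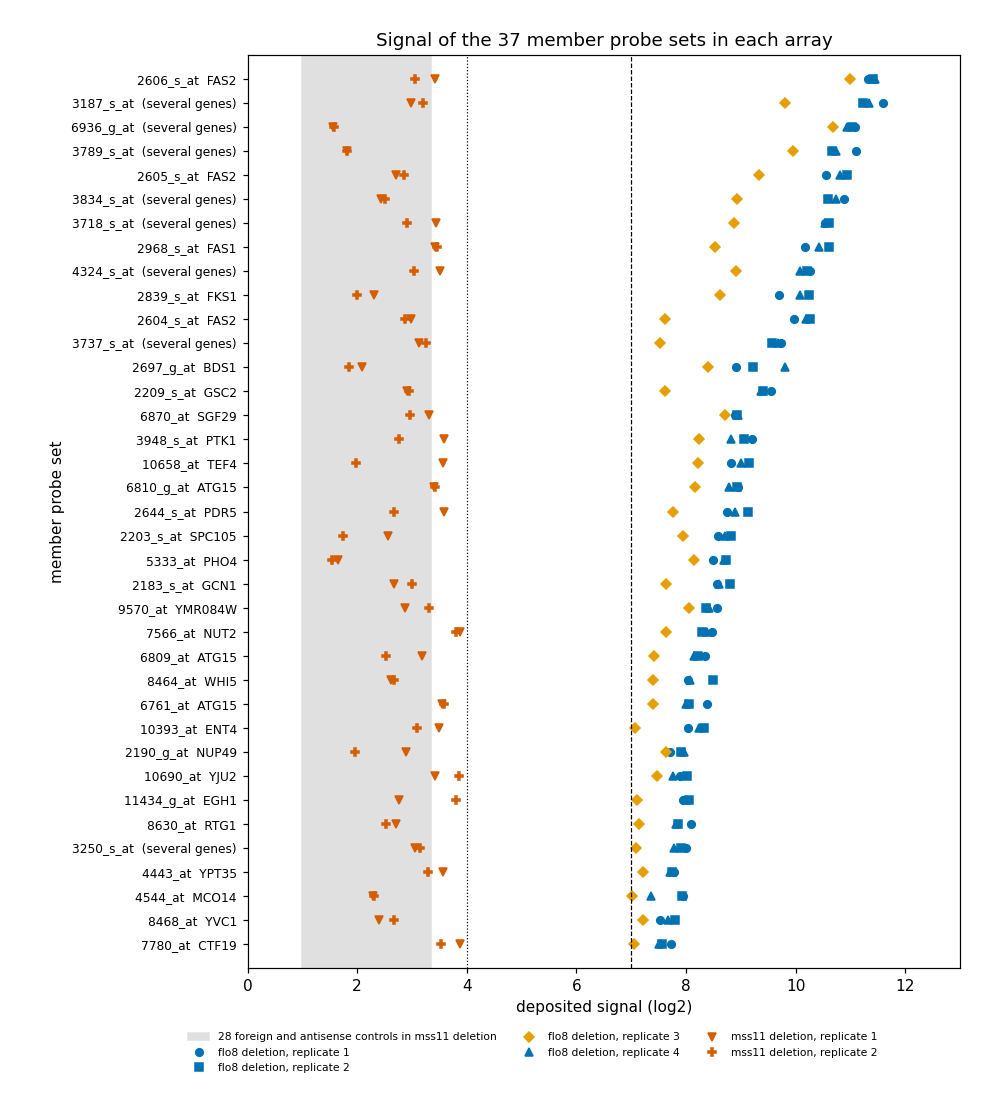
Deposited log2 signal (x axis) of each of the 37 members (y axis) in each of the 6 arrays, ordered by flo8Δ mean, with the 28 foreign and antisense controls' range in mss11Δ shaded and the limits 7 (dashed) and 4 (dotted) drawn. Replicate 3 of flo8Δ (orange) lies left of the other flo8Δ arrays in all 37 members, and 6 members have both mss11Δ values to the right of the highest control.

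Members near the limits were as follows, with no test. Just inside the limit of 7, the lowest flo8Δ value was 7.02 for MCO14 (4544_at), 7.04 for CTF19 (7780_at) and 7.06 for ENT4 (10393_at). Just outside it were DBF20 (7642_at) at 6.91, POP3 (9157_at) at 6.90 and RPR2 (4096_at) at 6.85. Just inside the limit of 4, the higher mss11Δ value was 3.88 for CTF19, 3.87 for NUT2 (7566_at) and 3.85 for YJU2 (10690_at). Just outside it were BBC1 (11047_at) at 4.05, RPT5 (2637_g_at) at 4.10 and GSC2 (2210_s_at) at 4.15. CTF19, a kinetochore protein, therefore sat near both limits and had the smallest strain difference of any member.

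Of the 25 genes, 11 had a single probe set that named them alone, so the array offered no second reading of these transcripts. The transcription factors PHO4 and RTG1 and the cell-cycle repressor WHI5 were among them. PHO4, which activates genes of phosphate starvation, read 8.48, 8.72, 8.14 and 8.68 in flo8Δ and 1.66 and 1.55 in mss11Δ on 5333_at. Both mss11Δ values lay below the control medians, so the signal of 5333_at was at least 35.8-fold lower in mss11Δ. Whether the whole PHO4 transcript was lower was not tested, as no other probe set names this gene alone. RTG1, a factor of the retrograde response from mitochondria to nucleus, read 8.08, 7.85, 7.14 and 7.81 against 2.71 and 2.52 on 8630_at. WHI5, which holds back entry into the cell cycle, read 8.03, 8.48, 7.40 and 8.07 against 2.61 and 2.67 on 8464_at. In each of these 3 genes the mss11Δ arrays were nearly equal, and replicate 3 was the lowest flo8Δ array.

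Other genes with a single probe set act in transcription or splicing. SGF29, a subunit of the SAGA histone acetyltransferase complex, read 8.89, 8.92, 8.72 and 8.94 in flo8Δ and 3.31 and 2.96 in mss11Δ on 6870_at. Its SD over the flo8Δ arrays, 0.10, was the smallest of any member. NUT2, a subunit of Mediator, read 8.48, 8.28, 7.63 and 8.38 against 3.87 and 3.81, both above the highest control. YJU2, a splicing factor, read 7.89, 8.02, 7.47 and 7.75 against 3.43 and 3.85, also above it in both arrays. The remaining single-probe-set genes were CTF19, the epsin-like ENT4, the endosomal protein gene YPT35, MCO14 and YMR084W, with flo8Δ means between 7.46 and 8.35. CTF19 shares its location with IRC15 in the annotation, with strand not considered, and whether its reading includes transcripts of both was not tested.

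ATG15, the vacuolar lipase that breaks down autophagic bodies, was the only gene with more than 1 probe set of its own and all of them members. Its 6810_g_at read 8.95, 8.92, 8.17 and 8.78 in flo8Δ and 3.41 and 3.41 in mss11Δ, a difference of -5.29. Its 6809_at read 8.34, 8.21, 7.41 and 8.14 against 3.18 and 2.52, and 6761_at read 8.38, 8.04, 7.40 and 8.0 against 3.55 and 3.59. The differences ran from -5.29 to -4.39 over the 3 probe sets, in each of which the rule set the groups apart. Probe sets that carry neighbouring numbers, such as 6809_at and 6810_g_at, may share oligonucleotides, so these are not 3 independent readings.

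The other 13 genes had 57 further probe sets that named them alone and did not meet the rule, and many of these were also lower in mss11Δ. Of the 57, 31 were at least 2-fold lower in mss11Δ by means, 20 differed by less than 0.5 in either direction, and 6 fell elsewhere, with a median difference of -1.84. The share at least 2-fold lower was 54.4%, against 6.24% over all probe sets, and 81.9% of all probe sets differed by less than 0.5. For 12 of the 13 genes (92.3%), at least 1 probe set differed by less than 0.5 while reading at least 7 in every flo8Δ array, so the same gene gave a high, nearly equal signal in both strains. The exception was TEF4, a subunit of translation elongation factor eEF1B, whose other probe set 10659_at differed by -0.69. TEF4 shares its location with SNR38 in the annotation. Over the whole array, member genes included, 137 genes had several probe sets of their own with at least 1 of them 2-fold lower in mss11Δ. Of these genes, 123 (89.8%) had another that differed by less than 0.5. That share set no condition on the level in flo8Δ, so it also counts probe sets dim in both strains.

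**Figure D2:**
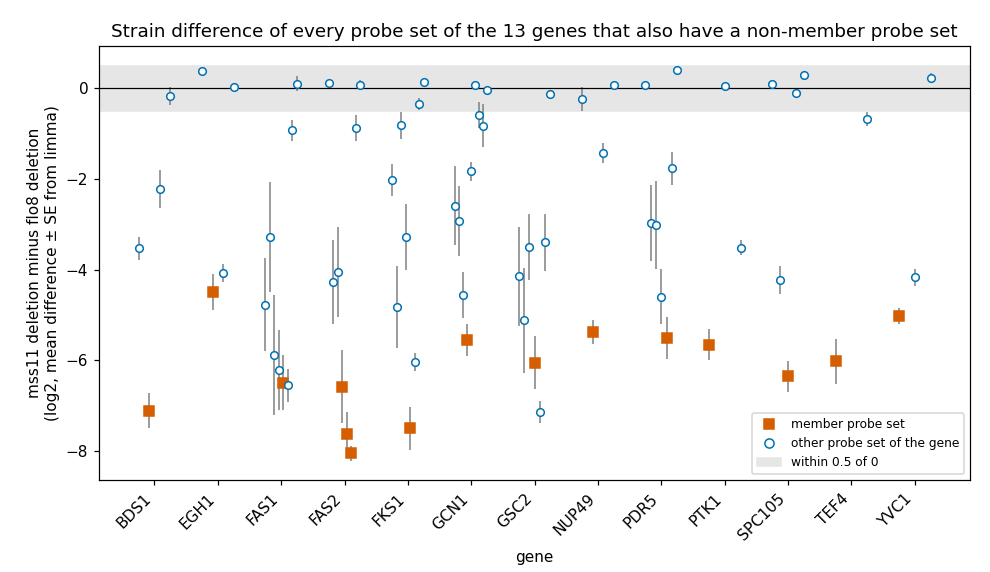
Difference of measured means, with no floor at the controls, mss11Δ minus flo8Δ in log2 units (y axis, points with the SE from limma), of every probe set that names 1 of the 13 genes (x axis), members as filled squares and others as open circles. In 12 genes at least 1 open circle lies within 0.5 of 0 while the member lies below -4, and the exception is TEF4, with its open circle at -0.69.

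Among these genes, the kinetochore protein gene SPC105 had 5 probe sets. Its lowest-numbered, 2201_at, read 1.85 to 1.97 in all 6 arrays, and 2202_g_at read 7.01, 7.02, 6.15 and 7.21 in flo8Δ and 2.68 and 2.55 in mss11Δ. Its member 2203_s_at read 8.58, 8.82, 7.94 and 8.72 in flo8Δ and 2.56 and 1.75 in mss11Δ. The next probe set by number, 2204_s_at, read 8.42, 8.45, 8.28 and 8.25 against 8.39 and 8.11, so the groups overlapped. The highest-numbered, 5104_at, read 9.99, 9.89, 9.97 and 9.84 against 10.14 and 10.27, with both mss11Δ arrays above all flo8Δ arrays.

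NUP49, a nuclear pore protein gene, was alike. Its member 2190_g_at read 7.71, 7.91, 7.63 and 7.97 in flo8Δ and 2.88 and 1.96 in mss11Δ. Its 5163_at read 10.91, 10.85, 10.88 and 10.96 against 10.97 and 10.96, a difference of 0.06. For YVC1, the vacuolar cation channel gene, 8468_at read 7.52, 7.79, 7.21 and 7.68 against 2.39 and 2.67. Its 8470_at read 9.18, 9.36, 9.55 and 9.32 against 9.63 and 9.53, with mss11Δ at the top of the flo8Δ range or above it. Further probe sets of these genes had lower means in mss11Δ, with differences of -4.17 for YVC1 8469_g_at and -1.43 for NUP49 2191_s_at. NUP49 2189_at read 3.30 to 4.22 in all 6 arrays.

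Among the enzyme genes, BDS1, an alkyl sulfatase gene, read 8.91, 9.23, 8.40 and 9.80 against 2.09 and 1.85 on its member 2697_g_at, and 9.48, 9.45, 9.50 and 10.08 against 9.49 and 9.42 on 8717_at. PTK1, a protein kinase gene, read 9.20, 9.06, 8.24 and 8.82 against 3.58 and 2.77 on its member 3948_s_at. On 10446_s_at it read 8.22, 8.16, 8.24 and 8.17 against 8.16 and 8.33. For EGH1, a steryl-β-glucosidase gene, the member 11434_g_at read 7.94, 8.05, 7.11 and 8.0 against 2.77 and 3.81. Its 11436_s_at read 9.23, 9.35, 9.13 and 9.21 against 9.32 and 9.21. The strains overlapped on the second probe set named for each of these 3 genes and were far apart on the member, as the rule required. The remaining probe sets mostly sided with the member, with mss11Δ minus flo8Δ at -3.53 for BDS1 2696_at, -2.22 for BDS1 2698_s_at, -3.52 for PTK1 10447_s_at and -4.08 for EGH1 11435_s_at. The exception was EGH1 4088_at, at 0.39.

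The 6 genes with an annotated gene length of 4 kb or more held 8 of the 29 single-gene members. They are FAS1 and FAS2, the subunits of fatty acid synthase, FKS1 and GSC2, catalytic subunits of the cell-wall β-glucan synthase, GCN1, an activator of the amino-acid starvation kinase Gcn2, and PDR5, a drug efflux pump. Together they had 47 probe sets, of which 32 were at least 2-fold lower in mss11Δ by means. In each gene the probe set with the highest ID number was nearly equal in the strains, with differences from -0.12 to 0.39. The files do not give the position of a probe set in its transcript, so ID order is used here only as an order of names.

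FAS2 had 3 members and is given over all 8 of its probe sets. The member 2604_s_at read 9.97, 10.27, 7.62 and 10.18 in flo8Δ and 2.98 and 2.87 in mss11Δ. The member 2605_s_at read 10.55, 10.94, 9.33 and 10.81 against 2.70 and 2.85. The member 2606_s_at had the highest flo8Δ mean of all members, 11.29 ± 0.21 (SD, n = 4), and read 11.31, 11.40, 10.99 and 11.44 against 3.42 and 3.05. In mss11Δ all 3 lay between 2.70 and 3.05, within the controls' range, except for 3.42 in replicate 1 of 2606_s_at, above the highest control, while the shortfall of flo8Δ replicate 3 shrank from 2604_s_at to 2606_s_at. The next number, 2607_s_at, read 12.34, 12.54, 12.53 and 12.63 against 12.17 and 11.11, and 7973_at read 11.74, 11.70, 12.02 and 11.75 against 11.92 and 11.84. Thus 2606_s_at was at least 239-fold lower in mss11Δ, and for 2607_s_at the difference was -0.87. Below the members, 2602_g_at read 7.20, 7.30, 4.41 and 7.37 against 2.37 and 2.21, missing the limit of 7 only through replicate 3, and 2603_s_at read 8.41, 8.90, 5.67 and 8.87 against 4.12 and 3.69. The lowest-numbered, 2601_at, read 3.19 to 3.34 in all 6 arrays, so its small difference of 0.11 carried little signal in either strain.

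The other fatty acid synthase gene and the glucan synthase genes ran in parallel. FAS1 had 1 member, 2968_s_at, at 10.17, 10.61, 8.52 and 10.42 against 3.42 and 3.45, while its 10781_at read 11.29, 11.74, 11.90 and 11.68 against 11.80 and 11.70. FKS1 had 1 member, 2839_s_at, at 9.70, 10.23, 8.62 and 10.08 against 2.32 and 2.00, while its 9966_at read 11.54, 11.56, 11.58 and 11.55 against 11.67 and 11.73. GSC2 had 1 member, 2209_s_at, at 9.55, 9.41, 7.61 and 9.37 against 2.91 and 2.94, while its 4959_at read 10.68, 10.43, 10.63 and 10.55 against 10.51 and 10.39. Most of the probe sets outside the rule were also at least 2-fold lower in mss11Δ by means. They were 5 of 7 for FAS1, 4 of 7 for FKS1 and 5 of 6 for GSC2. In all 3 genes replicate 3 was the lowest flo8Δ array of the member by more than 1 log2 unit, but was within the others' range, or above it, on the highest-numbered probe set.

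GCN1 and PDR5 closed the set. GCN1 member 2183_s_at read 8.56, 8.80, 7.62 and 8.59 against 2.68 and 3.01, and its 5184_at read 9.73, 9.69, 9.68 and 9.63 against 9.66 and 9.64. PDR5 member 2644_s_at read 8.74, 9.12, 7.76 and 8.89 against 3.58 and 2.66, and its 8400_at read 10.82, 10.90, 10.98 and 10.89 against 11.38 and 11.20. For PDR5 the mss11Δ arrays were thus the lowest on the member, as the rule required, and the highest on 8400_at. Of the probe sets outside the rule, 4 of 8 for GCN1 and 4 of 6 for PDR5 were at least 2-fold lower in mss11Δ. Over the 6 highest-numbered probe sets, replicate 3 differed from the mean of the other flo8Δ arrays by -0.01 to 0.33.

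**Figure D3:**
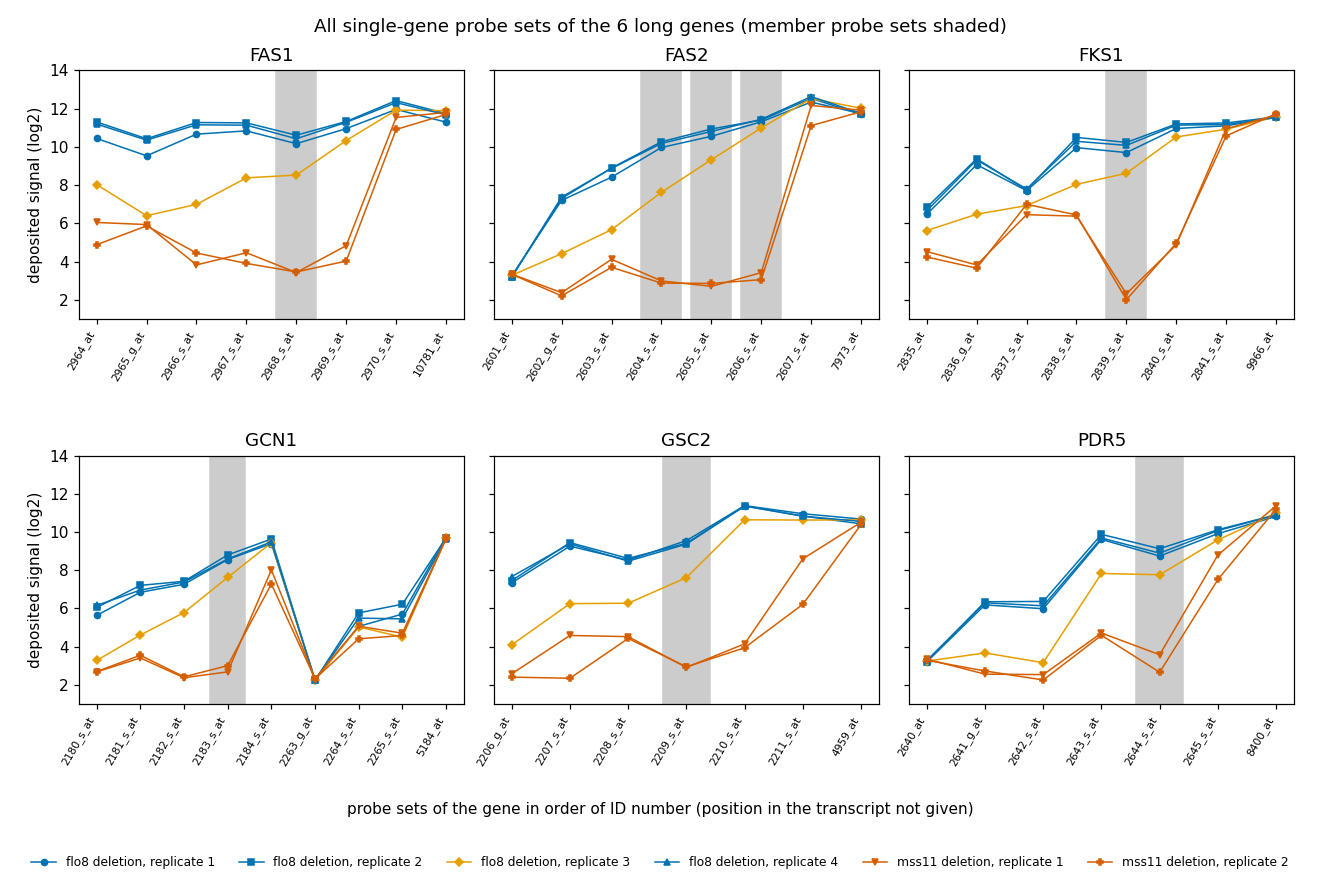
Deposited log2 signal (y axis) of all 47 probe sets of the 6 long genes in order of ID number (x axis), 1 line per array, with the 8 members shaded. The mss11Δ lines lie between 2 and 4 at the members and also at several unshaded probe sets. They return to near the flo8Δ lines at the last probe set of each gene. Replicate 3 of flo8Δ (orange) lies between the other flo8Δ arrays and the mss11Δ arrays at all 8 members.

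Long genes held more members than their share of strong probe sets. Probe sets that name 1 gene and read at least 7 in all flo8Δ arrays were grouped by annotated gene length. At 4 kb or more, 8 of 250 (3.20%) were members. The shares were 10 of 1780 (0.562%) under 1 kb, 8 of 1932 (0.414%) between 1 and 2 kb, and 3 of 967 (0.310%) between 2 and 4 kb. A mean at least 2-fold lower in mss11Δ was likewise found for 16.4% of these probe sets at 4 kb or more, against 3.10% to 3.67% in the shorter classes. Probe sets of 1 gene share its transcript, so these shares are counts and were not tested. Shorter members were also present, and the median annotated length of the member genes was 1563 bases, from 363 to 8019.

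Of the 8 members with several listed genes, 5 list YRF1 genes, the helicase genes of the Y′ elements next to telomeres. Each lists 11 to 19 genes, so these members report a family and no single copy. The highest, 3187_s_at, read 11.59, 11.23, 9.81 and 11.33 in flo8Δ and 2.99 and 3.19 in mss11Δ. Member 3789_s_at read 11.10, 10.66, 9.96 and 10.73 against 1.81 and 1.82, both below the control medians. Over the 5, the flo8Δ means ran from 9.12 to 10.99 and the mss11Δ means from 1.82 to 3.28, a separation that the rule fixed. The array holds 24 probe sets that list YRF1 genes. Among the 19 that are not members, 9 differed by less than 0.5, 7 of these while reading at least 7 in every flo8Δ array, and 7 were at least 2-fold lower in mss11Δ. The probe sets of this family thus ranged in mss11Δ from the controls' level to the level of flo8Δ.

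The other 3 of the 8 also list genes that had other probe sets nearly equal in the strains. Probe set 6936_g_at, which lists GLK1 and YCL042W, was at least 191-fold lower in mss11Δ. It read 11.08, 11.02, 10.67 and 10.93 in flo8Δ and 1.57 and 1.58 in mss11Δ. Its neighbour by number for GLK1, a glucokinase gene, was 6937_at, which read 11.66, 11.55, 11.76 and 11.54 against 11.56 and 11.50, so the strains overlapped there. Its neighbour for YCL042W alone, 6935_at, read 6.08, 5.94, 5.64 and 6.07 against 3.82 and 4.01. The mss11Δ values of 6936_g_at lay below the control medians, so its exact difference is not known. Probe set 3718_s_at lists 10 genes and read 10.54, 10.60, 8.87 and 10.53 against 3.44 and 2.91, and of the 41 other probe sets that list any of them, 35 differed by less than 0.5 and 5 were at least 2-fold lower. Probe set 3250_s_at lists 2 genes and read 8.0, 7.90, 7.08 and 7.78 against 3.05 and 3.14. Of 30 other probe sets that list either gene, 27 differed by less than 0.5 and 3 were at least 2-fold lower. Over all probe sets, 81.9% differed by less than 0.5 and 6.24% were at least 2-fold lower. The counts for 3718_s_at and 3250_s_at set no condition on the level in flo8Δ, so probe sets dim in both strains are included.

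Within flo8Δ, replicate 3 was the lowest of the 4 arrays in all 37 members. Over all probe sets it was the lowest in 23.3%, and in 26.3% of those at least 7 in all flo8Δ arrays. Its deviation from the mean of the other 3 arrays ran from -2.51 to -0.20 with a median of -0.80, beside medians of 0.01 over all probe sets and 0.04 over those at least 7. In 13 members it was at least 2-fold lower than that mean. The 2 largest deviations were -2.51 for FAS2 2604_s_at and -2.13 for 3737_s_at, a YRF1-listing member that read 9.72, 9.56, 7.52 and 9.67. The other 3 arrays lay within 0.25 of each other in the median member and within 0.90 at most. Replicate 3 also had the highest median over ribosomal RNA probe sets, 6.45, against 4.07, 4.64 and 5.06 in the other flo8Δ arrays and 3.61 and 3.90 in mss11Δ. Its part in the members' deviation was not tested. Replicate 3 also narrowed the membership: without it, the rule would have taken 65 probe sets of 43 genes, the 37 included.

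**Figure D4:**
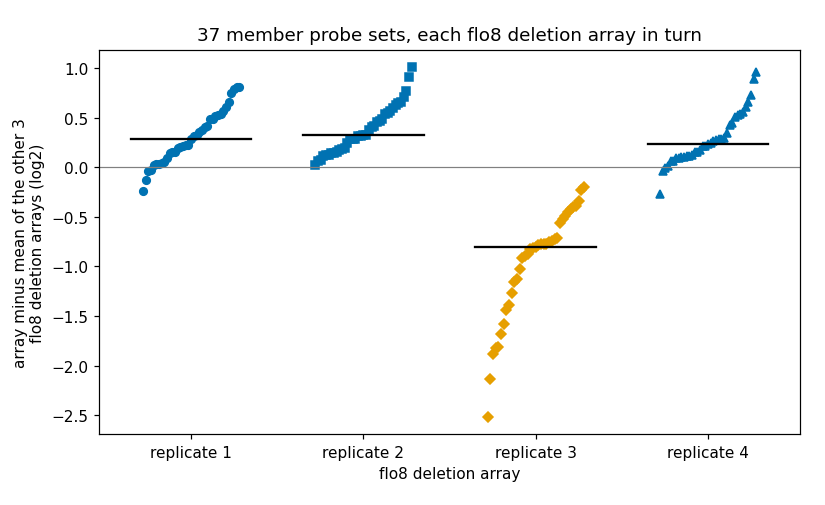
Each flo8Δ array minus the mean of the other 3 (y axis, log2 units) for the 37 members, 1 column of points per array with its median as a bar. Replicate 3 lies below 0 for all 37 members with a median of -0.80, and the medians of replicates 1, 2 and 4 are 0.28, 0.32 and 0.23.

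The 2 mss11Δ arrays placed the members at like levels, with a larger spread than other dim probe sets. The rule held both arrays to at most 4, so their likeness is in part set by it and is only described. Replicate 2 minus replicate 1 had a median of -0.07, with 19 members lower and 18 higher in replicate 2. The size of this difference was under 0.5 in 29 members and under 1 in 35. The exceptions were TEF4 10658_at, which read 3.57 and 1.98 in mss11Δ and 8.81, 9.14, 8.21 and 9.0 in flo8Δ, and EGH1 11434_g_at, at 2.77 and 3.81 in mss11Δ. The rule fixed that either pair lay below every flo8Δ value, so nothing is read from that. The median size was 0.27 over the members and 0.045 over the 1805 other probe sets at 4 or less in both mss11Δ arrays. Over the 171 of those that were at least 2-fold lower in mss11Δ than in flo8Δ, it was 0.18. Without mss11Δ replicate 1 the rule would take 56 probe sets of 40 genes, and without replicate 2 it would take 38.

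The ID suffix records how a probe set was designed, and members differed from the array in its make-up. On Affymetrix designs a plain _at marks a probe set meant for 1 transcript, and an added letter, as in _s_at or _g_at, marks one with oligonucleotides shared between sequences or another departure from the design rules. Among members, 17 (45.9%) ended in _s_at, 15 (40.5%) in a plain _at and 5 (13.5%) in _g_at. Among all probe sets, 7.05% ended in _s_at, 81.3% in _at and 1.94% in _g_at. Of the probe sets at least 7 in all flo8Δ arrays, members were 17 of 234 (7.26%) for _s_at, 5 of 65 (7.69%) for _g_at and 15 of 4829 (0.311%) for _at. None of the 356 strong probe sets that end in _f_at or of the 83 in _i_at was a member. As members were only 37 of all 5579 strong probe sets, little is read from this. In FAS1, FAS2, FKS1, GCN1, GSC2 and PDR5 all 8 members ended in _s_at although the annotation lists 1 gene for each. Whether their oligonucleotides also match related genes, as between FKS1 and GSC2, was not tested.

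How much 5′ signal each array kept can be read from 3 yeast genes whose transcripts carry control probe sets at either end. For actin, ACT1, the 5′ minus 3′ value was -0.41, -0.47, -0.63 and -0.40 in flo8Δ and -2.46 and -4.97 in mss11Δ. For SRB4, a Mediator subunit gene, it was -1.54, -1.60, -2.39 and -1.57 against -5.12 and -5.02. For SPT15, which encodes the TATA-binding protein, it was -0.82, -0.58, -0.63 and -0.68 against -0.69 and -1.52. Both mss11Δ arrays were thus lower than all flo8Δ arrays for ACT1 and SRB4, by 3.23 and 3.30 on average, while the groups overlapped for SPT15. Exact permutation tests on the size of the mean difference (two-sided, all 15 splits of 4 and 2 arrays) gave p = 0.067 for ACT1 and SRB4, the smallest this design allows, and 0.13 for SPT15. Replicate 3 was the lowest flo8Δ array for ACT1 and SRB4, but not for SPT15. A transcript that is missing and a probed stretch whose 5′ signal is lost give the same low reading, and arrays with low 5′ signal and mss11Δ are the same 2 arrays. For the members, the strain and the loss of 5′ signal therefore cannot be told apart, and how much each adds was not tested.

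None of the members names a flocculin gene or a regulator of filamentous growth from the lists used here. As members were only 37 of 9275 probe sets, nothing is read from this. Of the 5 flocculin and adhesin genes, 4 were measured by 12 probe sets that name 1 gene, and FLO9 had none. By limma adjusted p, 1 of the 12 was higher in mss11Δ, 4 were lower and 7 did not pass, against 28.2% higher and 12.1% lower over all probe sets. The median difference was -0.77 beside 0.11 over all probe sets. Among the lower, FLO5 11397_f_at at -1.99 (limma adjusted p = 0.034), lost its call under 5 of 10 alternatives, each without 1 array, at limma adjusted p = 0.068 to 0.13 and -2.02 to -1.76. FLO11, the adhesin gene, read 6.82, 6.64, 6.65 and 6.53 in flo8Δ and 6.85 and 6.85 in mss11Δ on 4100_at, and the difference of 0.19 ± 0.08 (SE) did not pass, at a limma adjusted p of 0.12. That call changed under other settings: quantile normalization gave 0.45 (limma adjusted p = 0.025), and the fit without flo8Δ replicate 1 gave 0.24 (limma adjusted p = 0.037).

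FLO10, another cell-surface flocculin gene, came nearest to the members and had 7 of these probe sets. Its 2919_s_at read 7.18, 7.80, 6.72 and 7.53 in flo8Δ and 4.12 and 3.69 in mss11Δ, outside both limits of the rule, and fell by 3.41 (limma adjusted p = 0.0021). Its 2918_s_at fell by 2.05 (limma adjusted p = 0.013) and 2920_at by 1.03 (limma adjusted p = 0.0072), and both calls were lost without mss11Δ replicate 2, at -1.84 (limma adjusted p = 0.087) and -0.98 (limma adjusted p = 0.052). Its 3001_at was the flocculin probe set called higher, by 0.23 (limma adjusted p = 0.033), a call lost under 8 alternatives and kept under 3. The highest-numbered of its probe sets, 10483_at, read 6.76, 6.80, 6.57 and 6.73 against 6.89 and 6.99 and did not pass. So the probe sets of FLO10, too, went in both directions. The 2 mss11Δ arrays were also those with low 5′ signal for ACT1 and SRB4. For the flocculins, and for the regulators that follow, strain and loss of 5′ signal therefore cannot be told apart either.

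Without FLO8 and MSS11 themselves, the other 12 regulators had 1 probe set each, with a median difference of -0.16. By limma adjusted p, 2 of the 12 were lower in mss11Δ, a share near the 12.1% over all probe sets, and 10 did not pass. Over all probe sets 28.2% were higher. TPK2, a catalytic subunit of the cyclic AMP-dependent kinase, read 9.57, 9.56, 9.65 and 9.61 in flo8Δ and 9.24 and 9.18 in mss11Δ, and fell by 0.39 (limma adjusted p = 0.0034). SFL1, a repressor of flocculation genes, read 5.78, 5.76, 5.72 and 5.77 against 5.30 and 4.95, and fell by 0.63 (limma adjusted p = 0.0087). Its call was lost after quantile normalization, at -0.16 (limma adjusted p = 0.25). TPK2 no longer passed with the sample number as a replicate block, at -0.36 (limma adjusted p = 0.052).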

How the data were processed

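RNA of 4 flo8Δ and 2 mss11Δ arrays was hybridised to Affymetrix Yeast Genome S98 arrays. The authors deposited a table of log2 values; per the submitters' processing notes RMA or GCRMA or both were used, with no word on which made the table. The log2 values were used as deposited. Probe sets were named through the platform annotation, in which 6504 pair with 1 gene, 328 with several and 2443 with none, and symbols were updated to RefSeq R64. Members were all probe sets meeting the limits of 7 and 4, and those named singly were the extremes and those nearest the limits by rule. The other genes described were chosen after their values were seen. Members and gene lists were chosen with earlier results of these data known. The fit across all 9275 probe sets was made with limma 3.58.1 (R 4.3.3), unpaired as in the series' design text, with p-values adjusted by Benjamini-Hochberg and called under 0.05, and was tested on simulated data. Alternatives were other limits, quantile normalization, median centring, an intensity trend, a replicate block and leaving out each array. A further fit left out the dimmest 25% of probe sets. The number of arrays limits the precision. Sequences and positions of probes were not used here.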

Additional observations from a re-analysis of the deposited data

Results flagged for a closer look

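In groups of 4 arrays, a value was set apart when its gap to the nearest other array divided by the group's range exceeded Dixon's 95% critical value, which chance gives in about 1 in 20 groups. In 8 of the 37 members replicate 3 of flo8Δ stood apart in this way, in each case as the lowest array. That is 21.6% of the members, against 2.20% of all probe sets and 2.08% of those at least 7 in all flo8Δ arrays. The rule that chose the members used these flo8Δ values, so the shares are a description. The values were 7.11 for EGH1 11434_g_at, 7.61 for GSC2 2209_s_at, 7.62 for FAS2 2604_s_at and 7.22 for YPT35 4443_at. Among members that list several genes they were 8.87 for 3718_s_at, 7.52 for 3737_s_at, 8.93 for 3834_s_at and 8.91 for 4324_s_at. The same array also stood apart in the 5′ minus 3′ value of SRB4, at -2.39. Outside the members, flo8Δ replicate 2 stood apart for FLO10 3001_at at 6.06, replicate 1 for MEP2 at 12.74 and replicate 4 for MSN1 at 8.59.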

How the results depend on the processing

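The number of members was 76 with limits of 6.5 and 4.5, 20 with limits of 7.5 and 3.5, 15 among plain _at probe sets and 37 to 65 when 1 array was left out, against 37. Their median difference was -4.82 and -6.74 with these looser and stricter limits. With the stricter limits 65% ended in _s_at, and the median of mss11Δ replicate 2 minus replicate 1 turned to 0.0053. Members at or below the controls in both mss11Δ arrays numbered 6 with the controls' upper quartile and 22 with the highest control, a limit added after seeing the data, against 3 with the median. The number of probe sets called by limma was 3741, 2181 with the sample number as a replicate block and 1569 to 3600 with 1 array left out. Deviations of same-numbered arrays from their group means correlated at 0.049 and -0.144. The deviations of the 2 mss11Δ arrays mirror each other, so these values cannot show whether the numbers mark pairs. The fit was left unpaired as in the series' design text, and the cause of the changes in the number of calls was not tested. The share of calls that were higher in mss11Δ was 54.9% after median centring, 74.3% after quantile normalization and 56.3% with the block. With 1 array left out, the 5′ minus 3′ difference ran from -4.49 to -1.98 for ACT1 and from -0.84 to -0.0100 for SPT15. Small differences that did not pass changed sign for FLO5 11395_at (0.26), PHD1 10609_at (0.054) and MEP2 9026_at (0.010) after quantile normalization, and for PHD1 with the replicate block (0.027). With 1 array left out PHD1 ran from -0.12 to 0.064. The number of member genes with another probe set within 0.5 was 12 or 13 under every alternative run for it.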
